A study of Mus musculus with 4 samples.

Results

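The copies of IAP, ETn and other elements of the ERVK class were followed in mouse embryonic fibroblasts (MEFs). They are the rows of the deposited repeat table whose RepeatMasker name begins with IAP, MMERVK, ETn, MMETn, RLTRETN, ERVB, RLTR9 or one of RLTR10 to RLTR19. By this rule 833 of 36284 repeat copies (2.30%) and 116 of 1040 repeat names were members. The choice rests on names alone and uses no measured value. The table gives no repeat class, so whether RepeatMasker places each of the 116 names in the ERVK class was not checked.

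BALB/c MEFs at passage 2 received either a lentivirus with GFP (the GFP control) or one with Stella (Dppa3), Oct4 (Pou5f1) and Nanos2 (SON), and each group has 2 libraries. Cells of both groups went through lentiviral infection, 4 days of 2 µg/ml puromycin that began after 72 h, and 21 further days in culture. Whether libraries of the same group come from different cultures or embryos is not stated in the labels. Their spread may therefore be technical, and p-values reflect that spread alone. Virus and culture coincide with the group, and their parts in any difference cannot be told apart from that of the delivered genes.

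ERVK elements are retroviruses that settled in the germ line and now lie in many copies across the mouse genome. A full element has an internal part with viral genes (names ending in -int) between a pair of long terminal repeats (LTRs), which hold the promoter; most copies have been reduced to a lone LTR. Intracisternal A particles (IAPs) and the MusD elements with their non-autonomous relatives, the early transposons (ETn), still move in mice. In embryonic cells KRAB zinc finger proteins bring TRIM28 and the histone methyltransferase SETDB1 to these elements, and DNA methylation kept by DNMT1 and UHRF1 silences IAPs in somatic cells such as fibroblasts.

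Levels are normalized counts, that is, the reads of a library over its size factor. The delivered genes checked the labels: Dppa3, Pou5f1 and Nanos2 together summed to 0 and 1.19 normalized counts in GFP control I and II, and to 1151 and 1124 in SON I and II. Of 8 fibroblast markers all were measured, and their summed level was 572742 and 291337 (GFP control) and 273040 and 226968 (SON). Col1a1 and Col1a2 alone made up 152385 and 194382 of the sum in GFP control I. The log2 difference was below 0 in 5 of the markers and above 0 in 3 (S100a4, Thy1 and Vim). Macrophage markers (12 found) summed to 1460 and 1533 (GFP control) and to 477 and 1316 (SON), with the log2 difference below 0 in all 10 that were tested, and pluripotent stem cell markers (8 found) summed to 25.1 to 33.8 in every library. In the repeat table rRNA rows took 1.97% and 3.33% of the level in GFP control a and b, but 22.3% and 7.84% in SON a and b. The part of these differences in the ERVK values was not tested. That table held 850223 and 1119717 reads in GFP control a and b and 565399 and 469737 in SON a and b, so that 1 read is worth 0.837, 0.595, 1.36 and 1.47 normalized counts. No label joins the letters a and b to the numerals I and II.

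The listed members are a small and uneven sample of the family. The 116 names have 1 to 56 listed copies each, with a median of 4, and 24 names have a single copy. Each row name ends in a number, and the highest numbers of the member names sum to 107376, of which the listed copies are 0.776%. IAPEz-int, an internal part of IAP elements, has 12 listed copies although its numbers reach 6695. Member copies hold 21 to 7295 reads, the median being 42, when all 4 libraries are added, and no copy in the whole table holds fewer than 21. A single LTR, RLTR13D3_113, carries 9.11% of the summed ERVK level, the top 10 copies carry 25.3% and the top 100 carry 58.7%. The sources used here do not say how reads with several matching places were assigned, so the split between near-identical copies is uncertain.

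Summed over all 833 copies, ERVK RNA was somewhat lower in both SON libraries. The sum was 21222.5 and 19963.5 normalized counts in GFP control a and b, and 17081 and 18257 in SON a and b. The groups do not overlap, with means of 20593 ± 890.3 and 17669 ± 831 (SD, n = 2 each) and a log2 difference of -0.22. The size depends on the scaling: it was -0.14 with TMM and -0.13 with RLE factors of the copies, and -0.09 with TMM factors of the name sums. The exact permutation test over libraries gave p = 0.333 (two-sided), which is the smallest that 2 against 2 libraries allow. Internal parts summed to 6229 and 6167 against 4850 and 5019, a log2 difference of -0.33, and LTRs to 14994 and 13797 against 12231 and 13238, a log2 difference of -0.18. All other repeats without the rRNA rows were lower in SON too, by a log2 difference of -0.12. Against the repeats other than rRNA, the ERVK share was 3.04% and 3.10% (GFP control) against 2.86% and 2.87% (SON). With names limited to IAP, MMERVK, ETn, MMETn and RLTRETN the summed difference was -0.23.

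Single copies and names were lower in SON across the whole table as well. Over all 833 copies the median log2 difference was -0.27, beside -0.15 over all 36284, and 63.6% of members lay below 0 beside 57.9% of all copies. Among copies with enough reads for a test the medians were -0.20 for members and -0.11 for all. Each listed copy holds at least 21 reads in all, and the GFP control is sequenced more deeply. The part of this listing in the lean to SON lower was not tested. Groups did not overlap in 106 member copies with SON higher (12.7%; 15.5% of all copies) and in 232 with SON lower (27.9%; 24.2% of all copies). Among tested names the median was -0.21 for members and -0.12 for all 943. With TMM factors computed on the names, the median of all tested names moved from -0.12 to 0.01, while members stayed 0.09 below it, so differences are best read against that median. Libraries of one group also differed from each other: the median size of the log2 difference per member copy was 0.45 between GFP control a and b and 0.70 between SON a and b, against 0.52 between the groups.

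**Figure D1:**
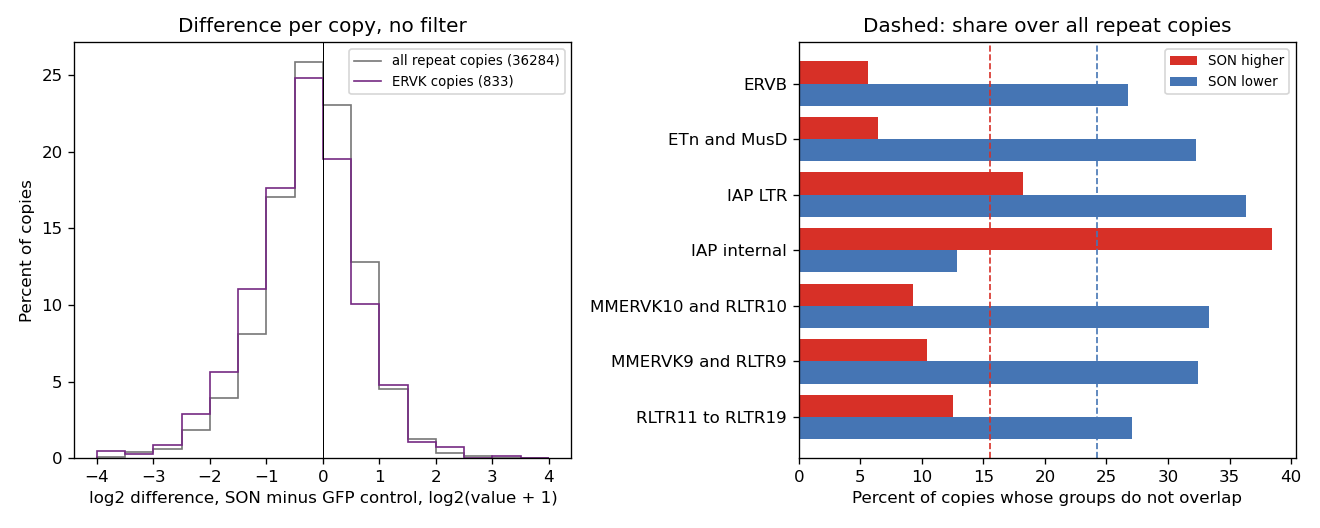
Left, the percent of copies (y axis) by log2 difference of SON minus GFP control on the log2(value + 1) scale (x axis), for 833 ERVK copies and all 36284 repeat copies, with differences beyond 4 placed in the end bins. Right, the percent of copies in each ERVK family (x axis) whose groups do not overlap, with SON higher in red and SON lower in blue, and dashed lines at the shares over all copies (15.5% and 24.2%); IAP internal parts reach 38.5% with SON higher.

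No member copy or name passed limma's test with Benjamini-Hochberg adjustment at 0.05. Reads were enough for a test in 460 copies and 106 names. The counts were 0 of 460 copies, where 0% of all 17390 tested copies passed, and 0 of 106 names, where 0.848% of 943 did. At an unadjusted p under 0.05, 19 copies were higher (4.13%, beside 3.15% of all) and 34 lower (7.39%, beside 6.38%), and 2 names were higher (1.89%, beside 2.55%) and 11 lower (10.4%, beside 9.33%). Over all deposited rows, 12 names had SON higher without overlap (10.3%, beside 13.2%) and 29 had SON lower (25%, beside 31.9%). These shares lie near those of the whole table.

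On the recovered reads, edgeR's quasi-likelihood test called 0 member copies and 0 names, whereas DESeq2 called 4 copies of 192 with an adjusted p (1.46% of all such copies) and 2 names of 39 (4.49% of all). All of these were lower in SON. Leaving out 1 library changed the count of called copies. It was 0 of 499 without GFP control a (0.098% of all copies passed), 3 of 502 without GFP control b (0.749%), 41 of 732 without SON a (3.89%) and 45 of 711 without SON b (3.8%), and 11 of the 679 member copies tested in both of the last fits were called in both (1.34% of all copies). In these fits the lone library of a group is assumed to vary like the pair in the other group. The read filter was also rerun on the remaining libraries, so more member copies were tested than the 460 of the main fit.

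Families differed in how their copies lay. IAP internal parts (5 names, 39 copies) had a sum of 790 and 796 normalized counts in GFP control a and b, and of 913 and 797 in SON a and b. They were the only one of 7 families whose sum was higher in SON on the deposited scale, by a log2 difference of 0.11, and SON b lay hardly above GFP control b. With SON higher and no overlap there were 15 copies (38.5%, beside 15.5% of all copies), and with SON lower 5 copies (12.8%, beside 24.2%). Of those 15 copies 12 belong to IAPEY4_I-int; among the other 24 copies of the family 3 had SON higher (12.5%) and 5 SON lower. The group named by IAP LTRs (11 names, 33 copies, with the internal part IAPLTR3-int among them) went the other way. Its sum was 527 and 603 (GFP control) against 433 and 432 (SON), a log2 difference of -0.38.

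ETn and MusD elements (5 names, 31 copies) summed to 1235 and 1017 in GFP control a and b and to 829 and 895 in SON a and b, a log2 difference of -0.38. ERVB elements (18 names, 71 copies), whose name stands for betaretrovirus-like sequences, summed to 1410 and 1853 against 950 and 1406, a log2 difference of -0.48. GFP control a and SON b were almost level there. MMERVK9 with RLTR9 (77 copies) differed by -0.29 and RLTR11 to RLTR19 (528 copies, 68.1% of the ERVK level) by -0.19. MMERVK10 with its LTR RLTR10 (54 copies), a group known to respond to the loss of TRIM28 in neural and embryonic cells, had overlapping groups. It gave 738 and 649 against 614 and 663, a log2 difference of -0.12 that turned to 0.02 under TMM factors of the names. The exact permutation p was 0.333 for every family except this one (0.667).

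**Figure D2:**
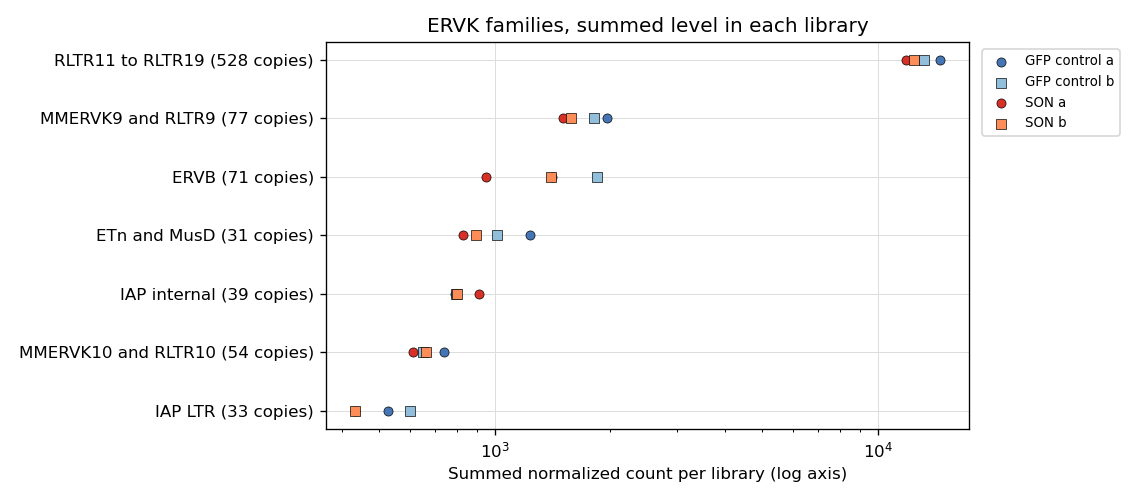
Summed normalized count of each ERVK family (log x axis) in GFP control a and b (blue) and SON a and b (red and orange). IAP internal parts have SON a at 913 and the other libraries between 790 and 797, while ETn and MusD elements have both SON libraries below both GFP control libraries.

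IAPEY4_I-int, the internal part of an IAP subfamily, had most of its copies higher in SON. It summed to 335 and 378 normalized counts in GFP control a and b, and to 552 and 469 in SON a and b. Both SON libraries were above both GFP control libraries. The log2 difference was 0.51 ± 0.19 (SE), with an adjusted p of 0.322 by limma. Of its 15 copies, 12 had SON higher without overlap and 0 had SON lower (over all copies, 15.5% and 24.2%); this count was singled out after its values were seen. The 2 copies with the most reads did not share this. IAPEY4_I-int_410 had 81.1 and 177 against 99.2 and 121, and IAPEY4_I-int_136 had 158 and 71.4 against 139 and 88.2. IAPEY4_I-int_407, IAPEY4_I-int_409 and IAPEY4_I-int_410 are consecutive table rows, as are IAPEY4_I-int_458 and IAPEY4_I-int_459. Whether such rows are pieces of 1 element is not given, so the 15 copies may not be separate cases.

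The other 13 IAPEY4_I-int copies summed to 96.2 and 130 in the GFP control and to 314 and 260 in SON. Their log2 difference was 1.35, beside 0.51 for all 15 copies. Since the 2 copies with the most reads were left out after their values were seen, the larger value is no test. IAPEY4_I-int_498 had 5.86 and 14.9 in GFP control a and b, and 47.6 and 36.8 in SON a and b. Its log2 difference was 2.04 ± 0.50 (SE), with adjusted p = 0.270 by limma over all tested copies. The level of IAPEY4_I-int_459 was 2.51 and 2.38 against 16.3 and 17.6, among the least covered of them. IAPEY4_I-int_407 gave 13.4 and 30.3 against 44.8 and 42.6. All 3 had both SON values above both GFP control values. The only listed LTR of the subfamily, IAPEY4_LTR_77, had 13.4 and 17.9 against 12.2 and 8.82.

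**Figure D3:**
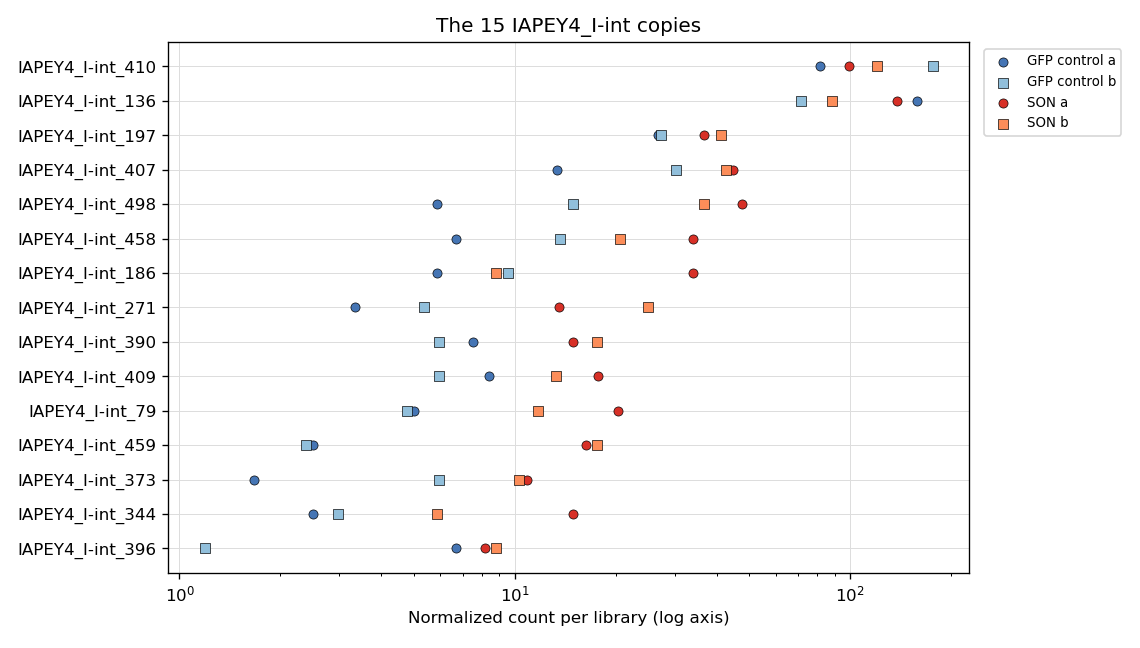
Normalized count (log x axis) of the 15 IAPEY4_I-int copies in the 4 libraries, from the highest mean level at the top. In 12 copies both SON libraries (red and orange) lie above both GFP control libraries (blue), while the top 2 copies overlap.

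Other IAP internal parts did not share this pattern. IAPEz-int (12 copies) summed to 299 and 228 in GFP control a and b and to 232 and 174 in SON a and b, with overlapping groups. IAP-d-int (8 copies) had 67.8 and 86.3 against 70.7 and 98.5, and IAPEY3-int (3 copies) had 46.8 and 69.6 against 23.1 and 51.5. Among the IAP LTRs, IAPLTR2a2_Mm (7 copies) had 78.6 and 104 (GFP control) against 38.0 and 38.2 (SON). Its log2 difference was -1.23 ± 0.29 (SE), adjusted p = 0.0863 by limma. IAPLTR2a2_Mm_979 alone held 50.2% of the reads of that name, with 41.0 and 61.9 against 8.15 and 4.41 (DESeq2 adjusted p = 0.021, limma 0.165). IAPEY_LTR (3 copies) had 88.7 and 84.5 against 55.7 and 35.3, and 77.3% of its reads came from IAPEY_LTR_1387. The values of these LTR names therefore rest on single copies.

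RLTR13D5 and RLTR19-int were the names that DESeq2 called as lower in SON. RLTR13D5 (8 copies), an LTR known for enhancer activity in trophoblast stem cells, had 980 and 834 normalized counts in GFP control a and b and 433 and 534 in SON a and b. The log2 difference was -0.91 ± 0.19 (SE), with adjusted p = 0.0631 by limma and 0.00194 by DESeq2. For RLTR19-int (28 copies) the sums were 957 and 815 against 447 and 535. Its log2 difference was -0.85 ± 0.19 (SE), with adjusted p = 0.0751 by limma and 0.00493 by DESeq2. Without GFP control b, limma's adjusted p was 0.0291 for RLTR13D5 and 0.0443 for RLTR19-int, where 2.61% of all names passed; without GFP control a it was 0.412 and 0.607, and with edgeR's TMM fit 0.118 and 0.122. The letter of the columns as a block gave 4 called copies of 460 (0.903% of all copies passed) and 3 called names of 106 (3.5% of all), RLTR13D5 and RLTR19-int among them. No member name was called without SON a or without SON b, where 0% of all names passed. Both names stayed lower in SON under every scaling tried.

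**Figure D4:**
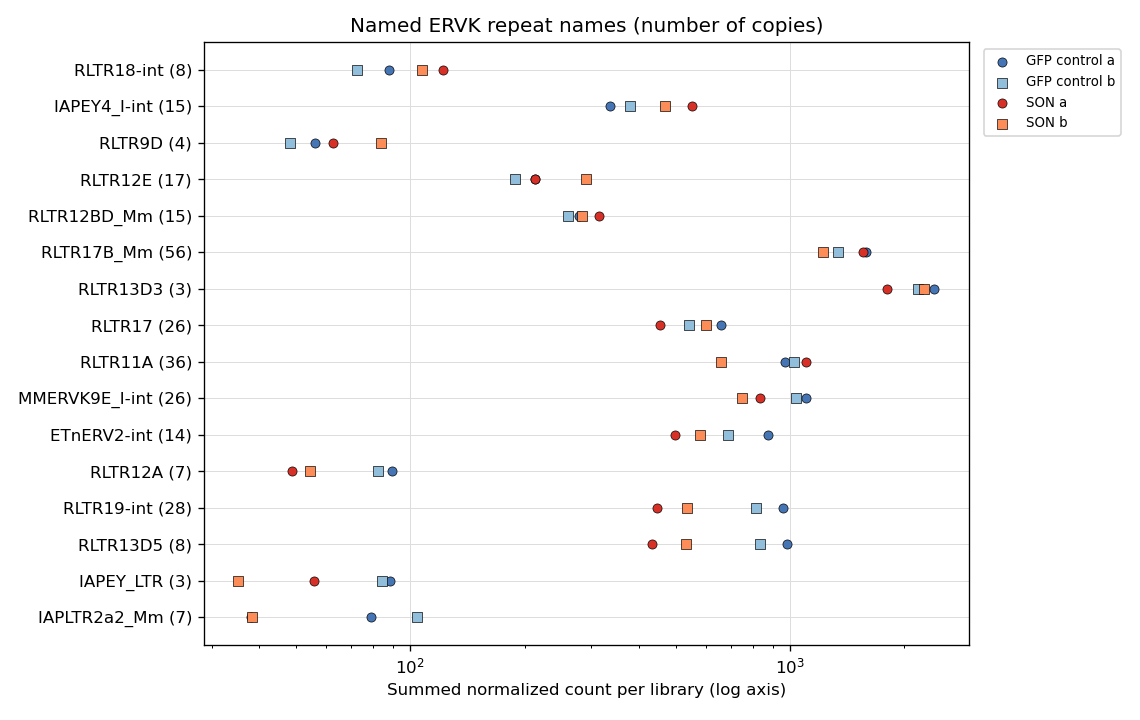
Summed normalized count (log x axis) of the 16 named ERVK repeat names in the 4 libraries, with the number of copies in parentheses and the highest log2 difference at the top. RLTR13D5 and RLTR19-int have both SON libraries (red and orange) well below both GFP control libraries (blue), whereas the name with the most reads, RLTR13D3, overlaps.

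Among the names with the most reads the sums hid copies that differed. RLTR13D3 (3 copies) had 2402 and 2173 (GFP control) against 1798 and 2250 (SON), with overlapping groups. Of its reads, 77.8% came from RLTR13D3_113, which had 1617 and 1626 against 1677 and 2051. RLTR13D3_96 had 779 and 532 against 120 and 191. The log2 difference of RLTR13D3_96 was -2.08 ± 0.34 (SE), with adjusted p = 0.165 by limma and 0.000568 by DESeq2. When the copy with the most reads was left out of every name, limma called RLTR13D3 (log2 difference -2.07, adjusted p = 0.000946) and RLTR13D5 (-0.99, adjusted p = 0.0146), in a fit where 0.811% of all names passed. For RLTR13D5 the copy left out was RLTR13D5_63. RLTR13D5_61 and RLTR13D5_62, from nearby table rows, remained with 977 and 736 of the 3255 reads of that name.

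RLTR17B_Mm (56 copies, the most of any member name) summed to 1588 and 1338 in GFP control a and b and to 1560 and 1222 in SON a and b, and the groups overlapped. Its leading copy RLTR17B_Mm_20275 had 449 and 407 against 694 and 484, and RLTR17B_Mm_3139 had 116 and 60.7 against 16.3 and 14.7 (DESeq2 adjusted p = 0.0145, limma adjusted p = 0.165). RLTR11A (36 copies) had 969 and 1023 against 1102 and 657. The gap within SON came from RLTR11A_2406, at 552 in SON a and 134 in SON b. RLTR17 (26 copies) overlapped as well, with 658 and 543 against 455 and 600. IAPLTR3-int_13, the remaining copy that DESeq2 called (adjusted p = 0.0261, limma 0.165), had 24.3 and 48.2 against 1.36 and 2.94. The SON values of that copy are 1 read in SON a and 2 in SON b.

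ETnERV2-int (14 copies), the MusD-like internal part with the most reads in its family, had 876 and 687 in GFP control a and b and 497 and 579 in SON a and b, a log2 difference of -0.53 ± 0.19 (SE), adjusted p = 0.301 by limma. The other ETn and MusD names overlapped: MMETn-int (6 copies) had 94.5 and 114 against 95.1 and 109, and ETnERV3-int (7 copies) had 201 and 159 against 167 and 171. MMERVK9E_I-int (26 copies) had 1103 and 1038 against 833 and 746, with SON lower without overlap in 12 copies and higher in 1 (24.2% and 15.5% of all copies), and adjusted p = 0.322 by limma. MMERVK10C-int (18 copies), the autonomous-like internal part of its group, had 289 and 221 against 277 and 241. RLTR12A (7 copies) had 89.5 and 82.1 against 48.9 and 54.4.

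The 12 names with SON higher without overlap (10.3%, beside 13.2% of all names) did not pass the adjustment. Some of them are given here. RLTR18-int (8 copies) had 87.8 and 72.6 in GFP control a and b and 122 and 107 in SON a and b, a log2 difference of 0.52 ± 0.25 (SE), adjusted p = 0.472 by limma. RLTR9D (4 copies), of an LTR group known for enhancers in embryonic stem cells, had 56.0 and 48.2 against 62.5 and 83.8. RLTR12E (17 copies) had 213 and 189 against 213 and 290, with GFP control a and SON a level. RLTR12BD_Mm (15 copies) had 278 and 261 against 314 and 284. RLTR19D, a name with the single copy RLTR19D_22, had 13.4 and 13.7 against 36.7 and 41.2. Its log2 difference was 1.46, with adjusted p = 0.152 by limma over the tested names.

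ERVB4_3-I_MM-int followed the library letters more than the groups. It summed to 427 and 819 normalized counts in GFP control a and b, and to 270 and 543 in SON a and b. Level b was above a in 21 of its 21 copies in the GFP control and in 18 in SON. ERVB4_3-LTR_MM, its LTR (8 copies), had 92.9 and 217 against 51.6 and 122. Without GFP control a, limma called both as lower in SON (log2 difference -1.09, adjusted p = 0.0333, and -1.44, adjusted p = 0.0135), where 1.06% of all names passed; with all 4 libraries the adjusted p was 0.505 and 0.496. The result for this element therefore depends on GFP control a. At the low end, RLTR19-int_548 had 14 and 22 reads in the GFP control and ERVB4_1-I_MM-int_277 had 13 and 11, and both had 0 reads in the SON libraries. Of all copies in the table, 100 had 0 reads in both SON libraries and 0 in both GFP control libraries. Each listed copy has at least 21 reads in all, and the GFP control is sequenced more deeply. The part of this listing in the direction of such copies was not tested.

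Several copies with large differences had neighbouring table rows with the same direction. Row numbers rise down the table within all 1040 names; whether neighbouring rows lie side by side in the genome is not given, and the table holds no coordinates. The stretches below were chosen after their values were seen. From RLTR13D5_61 to ETnERV2-int_88 the table has 11 rows, 7 of them members. All 11 had both SON values below both GFP control values, as 24.2% of all copies did. Because the limits of the stretch were set with the values known, this full count is no test. Log2 differences ran from -1.41 to -0.12, and the sum of the 11 rows was 1841 and 1431 against 859 and 919. RLTR13D5_61 had 299 and 277 against 93.8 and 124, RLTR13D5_62 had 228 and 189 against 97.8 and 107, and the row between them, MTA_Mm_941 of another LTR class, had 166 and 117 against 47.6 and 79.4. RLTR13D5_63, in the row just after the stretch, had 345 and 254 against 151 and 203. RLTR13D5_61, RLTR13D5_62 and RLTR13D5_63 held 977, 736 and 1088 of the 3255 reads of RLTR13D5. That name therefore rests mostly on neighbouring rows. ETnERV2-int_86 and ETnERV2-int_88, which hold much of the ETnERV2-int level, lie in this stretch too. Without the rows of this stretch the summed ERVK difference was -0.19.

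**Figure D5:**
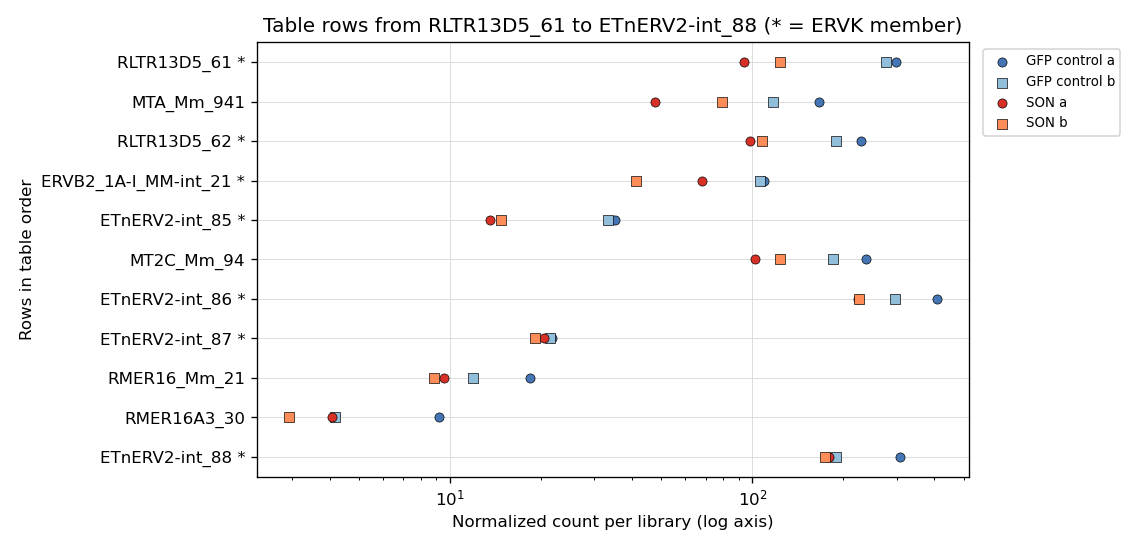
Normalized count (log x axis) in the 4 libraries of 11 neighbouring table rows from RLTR13D5_61 to ETnERV2-int_88, in table order from the top, with ERVK members starred. In each of the 11 rows both SON libraries (red and orange) lie below both GFP control libraries (blue), members or not. Over all copies this held for 24.2%, and the rows were chosen after their values were seen.

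Some other members with large differences sat in similar company. RLTR19-int_915, which holds 48.8% of the RLTR19-int reads, had 504 and 403 in GFP control a and b and 215 and 188 in SON a and b, and all 5 rows from RLTR19-int_914 to RLTR19-int_916 had SON lower without overlap. The 2 rows after RLTR13D3_96, LTR10_RN_128 and Lx8_14255, had 407 and 219 against 88.3 and 99.99, and 131 and 77.9 against 23.1 and 47.1. The nearest non-member row before it, RLTR31D_MM_2444, had a log2 difference of only -0.31. IAPLTR2a2_Mm_979 is one of 6 rows that all had SON lower, with log2 differences from -2.87 to -1.84. IAPLTR3-int_13 is one of 3 such rows, with log2 differences from -4.36 to -3.35. The largest fall there was in the non-member row B4_4997, with 206 and 185 against 5.44 and 13.2. Over all copies 24.2% had SON lower without overlap, and the rows given here were chosen after their values were seen. In contrast, IAPEY4_I-int_498 lies between rows of MMVL30-int, and the row before it, MMVL30-int_943, had 323 and 274 against 34.0 and 126 where the IAP row was higher. Among the 8 largest rises, only RLTR13D4_16, RLTR12E_209 and MMERVK9C_I-int_1470 had the nearest non-member rows higher on both sides. Among the 8 largest falls, RLTR17B_Mm_3139 was the exception. Its log2 difference was -2.37, and the mean of its nearest non-member rows was 0.39. MMERVK9E_I-int_45 and RLTR13D3A1_2, both among these falls, share the same nearest non-member rows. Rows below 0 are also the more common, at 57.9% of all copies. Over all 833 members, the log2 difference of a copy and the mean of its nearest non-member rows had Pearson's r of 0.36 and Spearman's rho of 0.31. Among the 61 members with a mean level of at least 50, r was 0.56 and rho 0.66. These are descriptions across copies, which share libraries and depth.

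Genes listed for silencing or restricting such elements differed little. The list also holds Tet1, Tet2 and Tet3, whose enzymes oxidize methylated cytosine and are not silencers. Of 45 listed symbols 44 were in the gene table, Tasor being a second symbol of Fam208a, and 43 were tested. The median log2 difference of the tested genes was 0.02, beside -0.01 over all 15283 tested genes, with 24 above 0 and 19 below. limma called 0 (0.0523% of all genes passed). At an unadjusted p under 0.05 there were 0 higher (5.99% of all) and 4 lower (6.57% of all), and DESeq2 called 1 (4.51% of all), Zc3hav1. Trim28, the corepressor brought by KRAB zinc finger proteins, had 5666 and 5676 normalized counts in GFP control I and II and 6514 and 5093 in SON I and II. Setdb1 had 1024 and 1102 against 1246 and 1030. Morc3, an ATPase known to silence these elements, had 1141 and 1138 against 1133 and 1385. None of these 3 separated the groups.

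Both maintenance methylation genes varied mostly within SON. Dnmt1 had 1670.4 and 1923 in GFP control I and II, and 2949 and 1604 in SON I and II. Uhrf1, which guides DNMT1 to newly copied DNA, had 602 and 745 against 1439 and 444. SON I was highest and SON II lowest for both. Zc3hav1, which encodes the antiviral RNA-binding protein ZAP, had 3704 and 2891 against 1887 and 1766, a log2 difference of -0.84 ± 0.17 (SE), with adjusted p = 0.249 by limma and 0.0135 by DESeq2. Mov10, an RNA helicase that restricts retroelements, had 1239 and 1226 against 791 and 942. Fam208a, which encodes the HUSH subunit TASOR, had 978 and 779 against 626 and 593. Dnmt3l, a cofactor of DNA methylation in germ cells, had 86.9 and 95.1 against 32.7 and 60.2, and Apobec3, a restriction factor, had 704 and 709 against 607 and 542. In these 5 genes both SON values lay below both GFP control values. Over the 43 tested genes of the list this held for 7 (23.7% of all tested genes), Cbx3 and Pphln1 being the others, and 3 had both SON values above (22.2% of all). These 3 were the TET gene Tet3 (616 and 521 against 768 and 621), Atf7ip (1407 and 1312 against 1460.4 and 1647) and Mphosph8. Mphosph8, which encodes another HUSH subunit, had 747 and 808 against 829 and 1036. limma's adjusted p was 0.249 or more for all 10.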

How the data were processed

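RNA of 4 libraries was prepared with the TruSeq mRNA kit v2, per the labels. Per the submitters' processing notes, STAR 2.4.0j, TopHat2 2.0.11 and the build GRCm38 (mm10) were used, with counting by HTSeq 0.5.3p3 and featureCounts of Subread and with DESeq2; which of them made which table is not stated. Both deposited tables hold a signal made by the authors, reads over a library's size factor: each value is a whole multiple of 1 step, within 0.01 reads. Size factors of the repeat table were 1.20 and 1.68 (GFP control) and 0.736 and 0.680 (SON). The authors' log2 fold changes, Wald scores and p-values deposited with the gene table were not used here. Repeat reads differed between any pair of libraries by a chi-square of at least 2.73 per degree of freedom.

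limma 3.58.1 (R 4.3.3) was run on log2(value + 1) with a trend, two-sided, over all rows passing filterByExpr of edgeR 4.0.16 on the recovered reads, with Benjamini-Hochberg adjustment over the whole table. Fold changes are on that scale and understate low rows. Copies were summed per name before the names were fitted. edgeR and DESeq2 1.42.0 were alternatives on the recovered reads, beside pseudocounts, filters, scalings and left-out libraries.

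Names given in the text are the 8 with the highest level and the 5 largest rises and falls without overlap (mean at least 50), and for copies the 8 highest and the 8 largest each way (mean at least 20). Not all copies of this rule are printed, and others were added after their values were seen. Members and lists were chosen with earlier results of these data known.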

Additional observations from a re-analysis of the deposited data

How the results depend on the processing

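Counts of called members depended on the tool and on single libraries. DESeq2 called 4 copies, 2 names and 1 silencer gene where limma called 0 of each. With each library left out in turn, called copies ranged from 0 to 45 and called names from 0 to 2, and 2 names were called without the top copy of each name; the cause was not tested. Pseudocounts of 0.1 and 10, no filter, 1 CPM in 2 libraries and edgeR with TMM or RLE factors left 0 called copies, names and silencer genes. The replicate block on the numerals of the gene table also left 0 silencer genes. A replicate block by the letter of the repeat columns, chosen after seeing the data, gave 4 called copies and 3 called names. The difference a minus b correlated between the groups with r of 0.12 over the 460 tested member copies and 0.29 over the 106 names. Since no label says what the letters share, they were not treated as pairs. The summed ERVK log2 difference lay between -0.30 (total reads) and -0.09 (TMM factors of the name sums), and from -0.27 to -0.17 with a library left out. The scalings RLE, upper quartile and TMM of the name sums, and the sums without the RLTR13D5_61 stretch or without the top IAPEY4_I-int copies, were chosen after seeing the data. Signs turned in 7 cases of named items. The log2 difference of RLTR17B_Mm became 0.0719 with edgeR TMM, and with a library left out it ranged from -0.25 (without SON a) to 0.10 (without SON b), being 0.05 without GFP control a. Between the same settings RLTR11A ranged from -0.60 to 0.15, RLTR11A_2406 from -1.57 to 0.47 and MMERVK9E_I-int_629 from -0.39 to 0.13. RLTR17 ranged from -0.39 (without SON b) to 0.00452 (without SON a). Read depth limits the copies: 373 of 833 had too few reads for the test.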
